A study of Mus musculus with 91 samples.

Results

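The 10 genes described here encode members of the BCL2 family, the proteins that decide whether a cell opens its mitochondria and dies: Bcl2, Mcl1, Bcl2l1, Bcl2l11, Bid, Bbc3, Pmaip1, Bmf, Bax and Bak1. They were taken by symbol from all 8 deposited count tables of one mouse RNA-seq series, through a match of Ensembl identifiers to mouse symbols. All 10 were found in every table, among 20378 genes that occur in any of them, and all 10 passed the low-count filter of every comparison. The cells are regulatory T cells (Tregs), the Foxp3-expressing CD4 T cells that dampen immune responses. They were sorted from spleens of RFP-Foxp3 reporter mice on the C57/BL6 background, so all groups carry the reporter allele. The animals had been injected with mIL-2, with a protein in which mouse IL-2 is fused to CD25, its receptor's alpha chain (mIL-2/CD25, called FP), or with PBS, and total RNA was sequenced. The labels' treatment text, the same for every sample, names 20 µg of FP and 100 µL of PBS.

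BCL2 family proteins act in 3 roles. Survival proteins such as BCL2, MCL1 and BCL-XL (from Bcl2l1) hold the pore-forming proteins BAX and BAK in check at the mitochondrial membrane. BH3-only proteins such as BIM (Bcl2l11), BID, PUMA (Bbc3), NOXA (Pmaip1) and BMF bind the survival proteins or activate the pore formers, after which cytochrome c leaves the mitochondria and caspases are activated. IL-2 signals through STAT5 and is a survival factor for Tregs, in which BIM and MCL1 are known to set how long the cells live.

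The groups came from injected animals at 1.5 h and 16 h (PBS, IL-2 and FP, 4 libraries of each), 4 h (3 PBS, 4 IL-2, 3 FP), 72 h (3 PBS, 3 IL-2, 4 FP) and 168 h (3 PBS, 4 FP). Further tables held Tregs given PBS or IL-2 in vitro for 1.5 h (3 and 3), a high dose of IL-2 against PBS (3 and 3, dose and time not in the labels), and a restimulation at 1.5 h with PBS then PBS (3), PBS then FP (3) or FP then FP (4). Each of the 8 tables holds PBS libraries and was normalised by itself, so levels set side by side across tables are descriptions. Tests of a treated group against PBS, or of FP against IL-2, stay within a table. Only differences of effect between tables were tested across them, in a joint fit of 2 tables with each effect against its own PBS. Nothing in the labels says whether replicates were separate animals or cultures, and a p-value here covers only the spread between such samples. Library totals ran from 12212262 to 46108114 counts. The T cell markers Cd3e, Cd3d, Cd3g and Cd4 and the 7 Treg markers, Foxp3 among them, were detected in every table, with a summed Treg level of 2175 to 6417 CPM (counts scaled to library size with TMM factors) over the libraries.

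Some libraries stood apart. The library labelled PBS then FP, replicate 1, had a summed Treg marker level of 2631 CPM, inside the 2592 to 3019.5 of the PBS then PBS libraries and below the 4987 and 5199 of the other libraries of its group. In the high-dose table IL-2 replicate 2 had the highest B cell marker sum, 1229.5 CPM against 690.1 and 850.6 in the other IL-2 libraries and 299.6 to 487 with PBS. At 4 h the summed B cell markers ran from 163 to 796 CPM within the table, and the spread between replicates was wide (38.4% biological variation, against 16.3% at 1.5 h and 11.2% at 16 h). Values of the 10 genes that rest on these libraries are given with and without them.

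In PBS-treated animals Mcl1 was the most abundant member and Bmf the least. Levels were compared between genes as CPM per kilobase of exon. At 16 h Mcl1 had 172 ± 14.7 CPM per kb (SD, n = 4), Bcl2 44.8 ± 4.06, Bax 20.6 ± 3.62, Bak1 16.5 ± 4.18, Bcl2l11 11.2 ± 2.63, Bcl2l1 8.81 ± 1.11, Bid 7.75 ± 0.78, Bbc3 6.95 ± 1.77, Pmaip1 3.76 ± 0.305 and Bmf 1.24 ± 0.559. The libraries of Mcl1 and Bcl2 did not overlap each other or any gene below them in this order, nor did those of Pmaip1 and Bmf, whereas each neighbour from Bax down to Bbc3 overlapped the next. Mcl1 was first in all 8 PBS groups and Bcl2 second in the 7 in vivo ones.

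In vitro the PBS order was another one. Bcl2l11 stood second at 43.0 ± 1.09 CPM per kb (n = 3) and Pmaip1 next at 29.3 ± 1.64, both above Bcl2 at 16.7 ± 0.476, with no overlap between these neighbours. The mean Pmaip1 level was 80.1 CPM in the in vitro PBS libraries, against 10.3 to 15.6 CPM in the in vivo PBS groups. That of Bcl2l11 was 345 CPM against 74.7 to 159 CPM, and that of Bcl2 153 CPM against 267 to 481 CPM. For Bcl2l1 it was 76.2 CPM against 36.1 to 50.4 CPM, and for Bid 11.1 CPM against 22.9 to 27.6 CPM. These are levels across separately normalised tables, and no test was made between them.

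**Figure D1:**
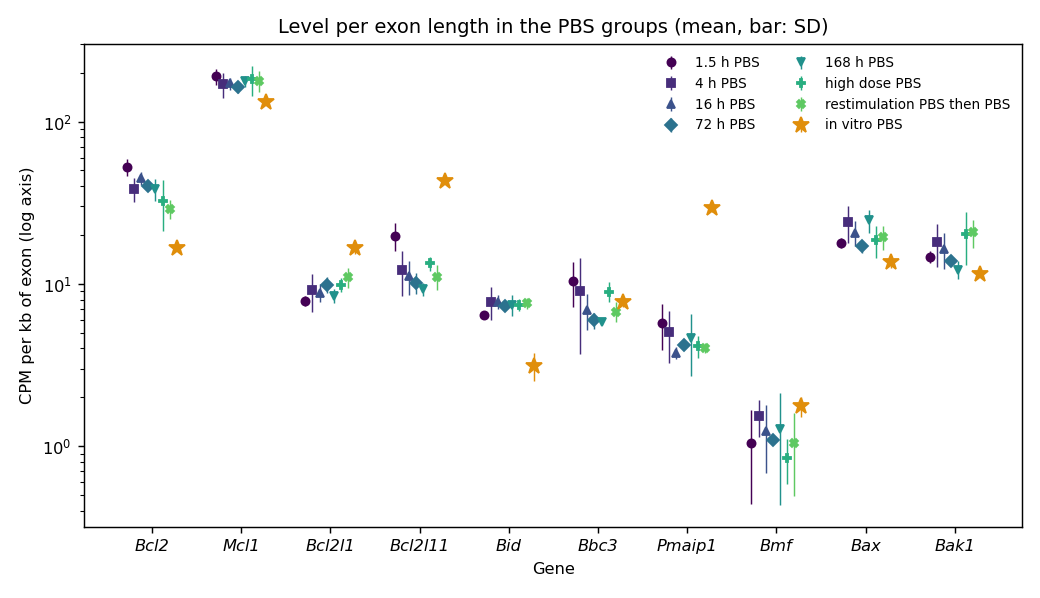
Level of each gene in the 8 PBS groups, as mean CPM per kilobase of exon on a log axis, with the SD over libraries as bars. Mcl1 lies highest throughout, and the in vitro group (star) lies apart from the others for Bcl2l11, Pmaip1, Bcl2, Bcl2l1 and Bid.

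Across the 13 comparisons of a treated group with its own PBS, 28 of 130 gene values passed an adjusted p of 0.01 by edgeR's quasi-likelihood test, called changed hereafter. Bbc3 was lower in 5 comparisons and Bcl2l11 in 4, and neither was called higher in any. Bcl2 was higher in 4, Bid and Bak1 in 3, Bcl2l1 in 2 and Bax in 1, none of them called lower. Mcl1 and Pmaip1 were each higher in 1 and lower in 1, and Bmf was lower in 2. The calls fell in 5 comparisons: IL-2 and FP at 1.5 h, FP at 16 h and 72 h, and IL-2 in vitro. Of all genes tested, 14.4% were called with IL-2 and 6.96% with FP at 1.5 h. With FP 28.9% were called at 16 h and 30.5% at 72 h, and with IL-2 in vitro 14.7%. In each of the other comparisons with PBS the share was between 0% and 1.18%, so the counts above are to be read against these shares.

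**Figure D2:**
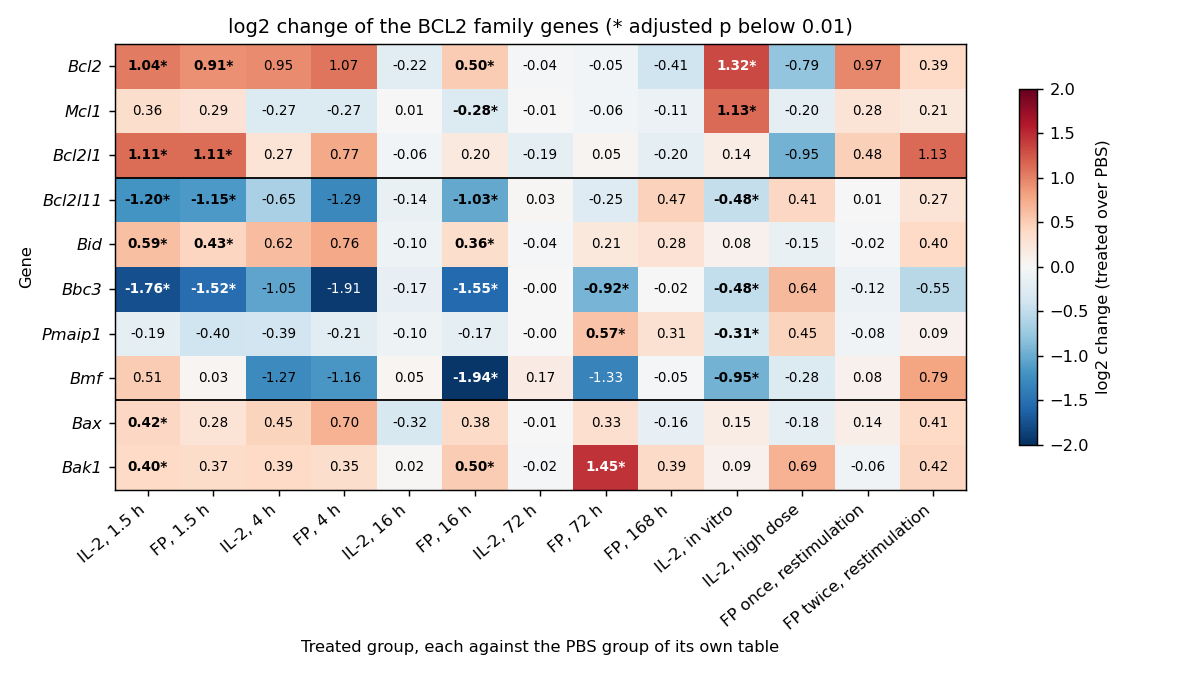
The log2 change of each gene (rows, ordered as survival, BH3-only and pore-forming) in each treated group against the PBS group of its table (columns), with changes of adjusted p below 0.01 marked by a star and bold. Calls are absent from the columns for IL-2 at 16 h and 72 h, FP at 168 h, both agents at 4 h, the high dose and both restimulation groups.

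The comparisons at 1.5 h ask how Tregs respond soon after each agent. The survival genes Bcl2 and Bcl2l1 rose and the BH3-only genes Bcl2l11 and Bbc3 fell, with both agents. Bid, a BH3-only gene, rose with both, and the pore formers Bax and Bak1 rose with IL-2. IL-2 changed 7 of the 10 genes, 5 higher and 2 lower, where 14.4% of all 16643 genes tested were called (8.56% higher, 5.89% lower). FP changed 5, 3 higher and 2 lower, where 6.96% of all genes were called (4.54% higher, 2.42% lower). The median change of the 10 genes was 0.41 on the log2 scale with IL-2 and 0.28 with FP, against -0.0081 and -0.0079 over all genes.

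Bcl2 (ENSMUSG00000057329, chromosome 1, 106538178 to 106714274, minus strand, GRCm38) encodes the survival protein the family is named after. Its level was 556, 435, 495 and 439.7 CPM in the PBS libraries, 921, 1142, 1005 and 903 CPM with IL-2 and 968, 1010.2, 905 and 742 CPM with FP, in the order of replicates 1 to 4. All 8 treated libraries were above all 4 PBS libraries. The log2 change was 1.04 ± 0.11 (SE) with IL-2 (adjusted p = 8.74e-06) and 0.91 ± 0.11 with FP (adjusted p = 7.01e-05). The antisense gene D630008O14Rik shares 558 exon bases with Bcl2, 6.09% of its exon length, and rose too, by 0.68 with IL-2 and 1.03 with FP, at a mean of 35.0 CPM in this table. Whether counting used strand is not stated, so reads in the shared stretch cannot be told apart.

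Bcl2l1 (ENSMUSG00000007659, chromosome 2, 152780668 to 152831728, minus strand) encodes BCL-XL. PBS libraries had 34.6, 34.3, 35.5 and 39.8 CPM, IL-2 libraries 80.7, 70.3, 81.0 and 79.4 CPM and FP libraries 77.7, 72.4, 81.8 and 79.3 CPM. The groups treated with either agent lay far above PBS, with no overlap, and close to each other. The change was 1.11 ± 0.078 with IL-2 (adjusted p = 1.33e-07) and 1.11 ± 0.078 with FP (adjusted p = 3.85e-07). Mcl1 (ENSMUSG00000038612, chromosome 3, 95658788 to 95663176, plus strand), whose protein is short-lived, was not called: its change was 0.36 ± 0.12 with IL-2 (adjusted p = 0.0454) and 0.29 ± 0.12 with FP (adjusted p = 0.15), and PBS and treated libraries overlapped.

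Bbc3 (ENSMUSG00000002083, chromosome 7, 16308393 to 16318205, plus strand) encodes PUMA, a BH3-only protein that binds every survival protein of the family. Its level was 23.1, 16.9, 16.9 and 31.2 CPM with PBS, 6.79, 8.39, 5.76 and 5.05 CPM with IL-2 and 5.96, 9.22, 8.17 and 7.41 CPM with FP. Every treated library was below every PBS library. The change was -1.76 ± 0.22 with IL-2 (adjusted p = 3.08e-05) and -1.52 ± 0.21 with FP (adjusted p = 0.000222), the largest decrease among the 10 genes with each agent.

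Bcl2l11 (ENSMUSG00000027381, chromosome 2, 128126038 to 128162547, plus strand) encodes BIM, which ends T cell lives when cytokine is withdrawn. PBS libraries had 195, 136, 131 and 175 CPM, IL-2 libraries 74.8, 96.8, 59.0 and 47.1 CPM and FP libraries 63.5, 96.7, 71.0 and 55.6 CPM. Every treated library lay below the lowest PBS library. The change was -1.20 ± 0.23 with IL-2 (adjusted p = 0.00302) and -1.15 ± 0.23 with FP (adjusted p = 0.00676). This call rests on few libraries: the adjusted p was 0.0102 to 0.0128 without IL-2 replicate 3, PBS replicate 1 or PBS replicate 4 (change -1.15 to -1.09), and with FP it was 0.0115 to 0.0265 without FP replicate 1, 3 or 4 or PBS replicate 1, 2 or 4 (-1.22 to -1.04).

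Bbc3 and Bcl2l11 are known targets of the transcription factor FOXO3, and their promoters were searched because both genes fell together. RefSeq promoter windows (250 bases before to 50 after a start site, GRCm38.p6) were searched for 9 of the 10 genes, 16 windows in all. Pmaip1 was left out of this search, so its promoter was not tested. For 3 motifs both strands were searched: GTAAACA (the FOXO core), TTCNNNGAA (the STAT5 palindrome) and CACGTG (an E-box), which are in 3.65%, 8.3% and 7.15% of 32851 mouse promoter windows. The letters GTAAACA occurred in 1 of 2 windows of Bcl2l11, at position -227 from the start site. On the other strand, as TGTTTAC, they occurred in 1 of 3 windows of Bbc3, at position -167. They occurred in no window of the other 7 genes searched. CACGTG occurred in another Bbc3 window and, at 2 places, in that of Bax, and TTCNNNGAA in none of the 16 windows. A match of letters is a description and not a binding site. The 250 bases before the start sites of both windows with the FOXO core, plus strand, are printed with the match in capitals (chr2:128125788-128126037 for Bcl2l11 and chr7:16310011-16310260 for Bbc3).
Bcl2l11: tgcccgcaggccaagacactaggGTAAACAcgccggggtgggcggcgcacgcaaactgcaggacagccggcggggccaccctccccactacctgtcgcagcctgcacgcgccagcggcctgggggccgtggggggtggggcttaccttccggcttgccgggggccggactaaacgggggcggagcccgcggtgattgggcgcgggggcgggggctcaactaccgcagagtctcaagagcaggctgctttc
Bbc3: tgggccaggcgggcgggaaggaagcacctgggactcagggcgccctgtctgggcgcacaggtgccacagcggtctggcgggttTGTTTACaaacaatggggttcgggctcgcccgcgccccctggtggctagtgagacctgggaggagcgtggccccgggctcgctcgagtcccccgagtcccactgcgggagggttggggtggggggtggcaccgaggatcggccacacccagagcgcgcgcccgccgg

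Bid (ENSMUSG00000004446, chromosome 6, 120891930 to 120916853, minus strand) encodes a BH3-only protein that caspase-8 cleaves into an active form. PBS libraries lay at 22.2 to 23.4 CPM, IL-2 libraries at 31.1 to 36.8 CPM and FP libraries at 28.3 to 33.4 CPM, without overlap. It rose by 0.59 ± 0.087 with IL-2 (adjusted p = 0.000139) and by 0.43 ± 0.087 with FP (adjusted p = 0.00398). The FP call was lost without FP replicate 1 or 3 or PBS replicate 1, 2 or 3 (change 0.39 to 0.44, adjusted p 0.0124 to 0.0194). Bcl2l13, which shares 628 exon bases with Bid on the opposite strand, had changes of -0.0078 and -0.0063. Pmaip1 (ENSMUSG00000024521, chromosome 18, 66458533 to 66465565, plus strand), which encodes NOXA, had changes of -0.19 ± 0.27 and -0.40 ± 0.27, and Bmf (ENSMUSG00000040093, chromosome 2, 118528757 to 118549687, minus strand) of 0.51 ± 0.38 and 0.033 ± 0.38, all with overlapping groups and none called.

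The pore formers moved by less. Bax (ENSMUSG00000003873, chromosome 7, 45461697 to 45466898, minus strand) had 26.1, 29.6, 27.4 and 30.1 CPM with PBS and 39.4, 32.9, 42.4 and 36.7 CPM with IL-2, which did not overlap, and rose by 0.42 ± 0.092 (adjusted p = 0.00362). Bak1 (ENSMUSG00000057789, chromosome 17, 27019810 to 27029009, minus strand) had 33.4, 38.1, 32.3 and 37.3 CPM with PBS and 53.5, 41.1, 48.1 and 43.1 CPM with IL-2, and rose by 0.40 ± 0.097 (adjusted p = 0.00722). Both calls were lost without IL-2 replicate 1 or 3 or PBS replicate 1, 2 or 3 (adjusted p 0.0105 to 0.0161 for Bax at changes of 0.36 to 0.44, and 0.0129 to 0.0297 for Bak1 at 0.32 to 0.43). With FP the changes were 0.28 ± 0.092 (adjusted p = 0.0633) and 0.37 ± 0.097 (adjusted p = 0.0198).

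IL-2 and FP were not told apart at 1.5 h. The direct test with edgeR called 0 of 16643 genes (0%), with 954 at an unadjusted p under 0.05 and 1 called by DESeq2. The difference, FP minus IL-2, had a 95% interval of -0.37 to 0.11 for Bcl2, -0.16 to 0.16 for Bcl2l1, -0.46 to 0.56 for Bcl2l11 and -0.23 to 0.72 for Bbc3 on the log2 scale. Summed B cell markers were 359 to 504 CPM with PBS and 220.2 to 307 CPM in the treated groups, with 1 of 6 called lower with each agent, and their part in these results was not tested. Of 7 Treg markers 4 were called higher with IL-2 and 3 with FP (medians 0.58 and 0.36). In such bulk samples fewer cells of a type and less RNA per cell cannot be told apart. Myeloid markers overlapped between all groups (438 to 2341 CPM).

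Counts in the related gene lists at 1.5 h are to be read against the 14.4% of all genes called with IL-2 and 6.96% with FP, and small counts such as 3 of 16 lie near these shares. Of 16 caspase, apoptosome and IAP genes downstream of the mitochondria, IL-2 raised 3 and lowered none (median change -0.11). Cycs, which encodes cytochrome c, by 0.94 ± 0.14, and Diablo, whose protein SMAC blocks IAPs, by 0.64 ± 0.081, were the largest. FP raised 2, Cycs by 0.60 ± 0.14 and Diablo by 0.46 ± 0.081 (median -0.072). In the death receptor arm 2 of 9 genes rose with each agent, Casp8, the initiator caspase, by 1.25 ± 0.073 and 1.16 ± 0.073, and Ripk1, a kinase of the same complexes, by 0.93 ± 0.11 and 0.91 ± 0.11 (medians 0.065 and 0.12). Of 12 tested other BCL2 family genes, none was called with either agent (medians -0.12 and -0.015).

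Among 10 tested regulators of the family, IL-2 lowered 3 and raised 1, and FP lowered 3 (medians -0.17 each). Bcl6, a repressor, changed by -1.54 ± 0.16 with IL-2 and -1.28 ± 0.15 with FP, and Foxo1 by -0.61 ± 0.083 and -0.56 ± 0.083, while Trp53 rose with IL-2 by 0.37 ± 0.077. Of 12 T cell genes linked to FOXO factors, 6 fell with IL-2 and 5 with FP and none rose (medians -0.79 and -0.57), among them Il7r, the IL-7 receptor, with changes of -1.62 ± 0.18 and -1.47 ± 0.18, and Pik3ip1, an inhibitor of PI3K, with -1.59 ± 0.28 and -1.56 ± 0.28. Of 10 tested p53 targets, 1 rose and 2 fell with each agent (medians -0.053 and -0.063): Aen, a nuclease, rose by 1.18 ± 0.096 and 1.02 ± 0.095, and Sesn1 had changes of -1.44 ± 0.075 and -1.19 ± 0.074 and Trp53inp1 of -1.25 ± 0.17 and -1.16 ± 0.17.

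**Figure D3:**
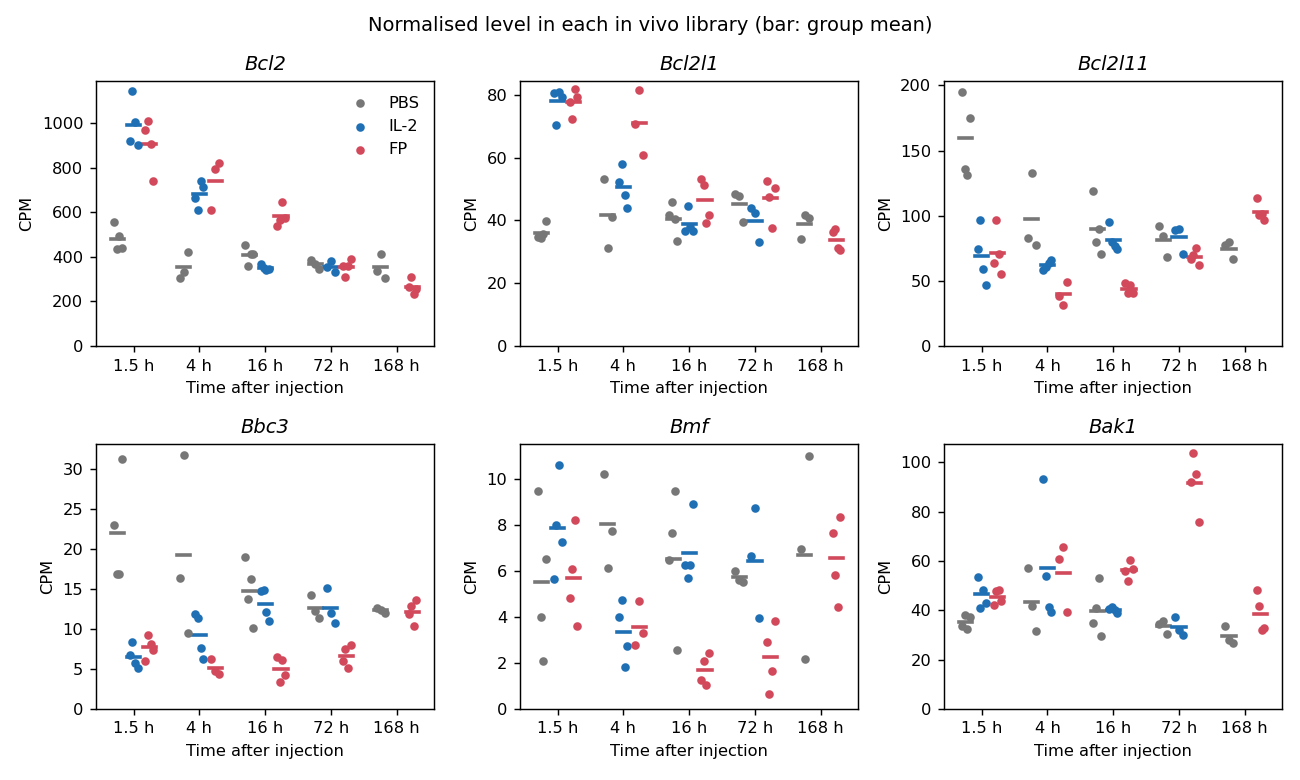
CPM of 6 genes in every in vivo library against time after injection, with points for libraries and bars for group means (grey PBS, blue IL-2, red FP). Bcl2 and Bcl2l1 are high and Bcl2l11 and Bbc3 low in treated animals at 1.5 h, at 16 h the FP libraries alone are displaced for Bcl2, Bcl2l11 and Bbc3, and Bak1 stands out with FP at 72 h.

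At 4 h no member was called in the fit without a replicate block, where 0.646% of genes were called with IL-2 and 0.851% with FP. The Bcl2 levels were 307, 333 and 421 CPM with PBS (replicates 1, 2 and 4), 665, 608, 738 and 713 CPM with IL-2 and 609.7, 791 and 821 CPM with FP (replicates 1, 2 and 4), again without overlap. The change was 0.95 ± 0.19 with IL-2 (adjusted p = 0.029) and 1.07 ± 0.20 with FP (adjusted p = 0.0177). Each same-numbered pair of treated and PBS libraries correlated above 0.1 in its deviations at this time, but FP replicate 2 less with PBS replicate 2 (0.18) than with another PBS library (0.61), and it carries the tag of PBS replicate 1, so the number may not pair it. With the replicate number as a block Bcl2 was called at 0.92 with IL-2 (adjusted p = 0.00638) and 1.07 with FP (adjusted p = 0.00156). The blocked fit called 510 genes with IL-2 and 1016 with FP, in place of 114 and 150. Libraries of this table carry a lane and a tag in their names, of unstated meaning. FP replicates 2 and 4 were on lane L001 and every other compared library on L002. With lane as a covariate no member was called with IL-2, where 40 of all genes were. The FP effect in that fit rests on FP replicate 1 alone, so the fit cannot decide calls with FP. A fit with the tag as a factor over libraries that share one was added after the data were seen. It kept replicates 2 and 4 of each agent and PBS replicates 1, 2 and 4. This tag fit called 3 members with IL-2 and 7 with FP, Bcl2, Bcl2l11 and Bbc3 among both, where 1145 and 1926 of all genes were called.

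Bcl2l11 and Bbc3 were called lower with FP at 4 h under the block but not without it. Bcl2l11 had 82.6, 133 and 77.7 CPM with PBS, 58.7, 60.4, 63.9 and 65.7 CPM with IL-2 and 38.7, 31.8 and 49.4 CPM with FP, and each agent's libraries lay below PBS. Its change with FP was -1.29 ± 0.23 (adjusted p = 0.0169, and 0.00287 with the block). Bbc3 had 16.4, 31.8 and 9.50 CPM with PBS and 6.18, 4.79 and 4.38 CPM with FP, a change of -1.91 ± 0.44 (adjusted p = 0.044, and 0.00227 with the block). With IL-2 the changes were -0.65 ± 0.21 and -1.05 ± 0.39, not called in either fit.

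The other genes at 4 h were not called with or without the block. Bmf changed by -1.27 ± 0.37 with IL-2 and -1.16 ± 0.40 with FP, with all treated libraries below all PBS libraries, at levels of 10.2, 6.14 and 7.74 CPM with PBS. Bcl2l1 changed by 0.27 ± 0.20 and 0.77 ± 0.21. IL-2 replicate 1 had 64.1 CPM of Bid, 86.8 of Bax and 93.5 of Bak1, above the 31.9 to 37.1, 36.2 to 43.9 and 39.5 to 54.0 of the other IL-2 libraries, and without it the Bid change went from 0.62 to 0.35, that of Bax from 0.45 to 0.08 and that of Bak1 from 0.39 to 0.047. The direct test of FP against IL-2 at 4 h gave no call with edgeR (0%), 469 genes at an unadjusted p under 0.05 and 4 calls with DESeq2. Of the other lists, the p53 target Aen was called higher with both agents (1.34 ± 0.16 and 1.35 ± 0.17) and no other member of the 6 lists was called.

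At 16 h libraries from animals given IL-2 and those given FP differed widely. With IL-2 none of the 10 genes was called, where 0.367% of genes were. With FP 7 were called, 3 higher and 4 lower, where 28.9% of genes were (14.6% higher, 14.4% lower). The median change of the 10 was 0.012 with FP and -0.098 with IL-2, against -0.051 and -0.0062 over all genes.

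Bcl2 had 451, 361, 413 and 414 CPM with PBS, 367, 350.1, 343 and 345 CPM with IL-2 and 537, 565, 645 and 575 CPM with FP. The FP libraries lay above all others, while IL-2 and PBS overlapped. The FP change was 0.50 ± 0.078 (adjusted p = 4.88e-05) and the IL-2 value -0.22 ± 0.078 (adjusted p = 0.27). The antisense gene D630008O14Rik rose with FP by 0.66. Mcl1 fell with FP by a small step, -0.28 ± 0.073 (adjusted p = 0.00488), from 551, 552, 658 and 591 CPM to 493, 506, 488 and 450.0 CPM, and this call was lost with RLE size factors in place of TMM (-0.24, adjusted p = 0.0128) and without FP replicate 1, 3 or 4 or PBS replicate 3 (adjusted p 0.0104 to 0.0400). The Mcl1 value without PBS replicate 3 was -0.17, and without the FP libraries named it was -0.29 to -0.25. Bcl2l1 was not called (0.20 ± 0.11, adjusted p = 0.17).

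The 3 BH3-only genes Bcl2l11, Bbc3 and Bmf fell with FP at 16 h. Bcl2l11 had 119, 80.2, 89.9 and 70.5 CPM with PBS, 95.5, 79.5, 76.7 and 74.5 with IL-2 and 48.1, 40.6, 46.7 and 41.1 with FP, a change of -1.03 ± 0.13 (adjusted p = 1.7e-05). Bbc3 had 18.97, 13.7, 16.3 and 10.1 CPM with PBS, 14.7, 14.8, 12.12 and 10.9 with IL-2 and 6.44, 3.41, 6.05 and 4.26 with FP, a change of -1.55 ± 0.21 (adjusted p = 1.55e-05). Both had FP libraries below every PBS and IL-2 library.

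Bmf, whose protein responds to loss of attachment and of growth factors, had 6.47, 7.66, 9.47 and 2.54 CPM with PBS, 6.27, 5.68, 6.27 and 8.92 with IL-2 and 1.26, 2.08, 1.04 and 2.43 with FP. It changed by -1.94 ± 0.35 (adjusted p = 0.000511), and these are low levels at which few reads set each value. At 1.5 h its value with FP was 0.033. The difference between the times missed the threshold (-1.94 ± 0.57, adjusted p = 0.0349), which it passed without 16 h PBS replicate 4 or 1.5 h PBS replicate 1 (-2.21 and -2.33, adjusted p = 0.00656 and 0.00852).

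Bid and Bak1 rose with FP at 16 h, by 0.36 ± 0.09 (adjusted p = 0.00404) and 0.50 ± 0.13 (adjusted p = 0.00402). Bid had 26.3, 29.3, 30.2 and 24.2 CPM with PBS and 33.0, 33.8, 36.1 and 38.0 CPM with FP. For Bak1, PBS replicate 3 at 53.01 CPM overlapped the FP libraries (51.8 to 60.3), and the other PBS libraries had 29.7 to 41.0 CPM. Both calls were lost without FP replicate 4 (adjusted p = 0.0192 and 0.0116, changes 0.32 and 0.50) or PBS replicate 1 (0.0120 and 0.0148, changes 0.34 and 0.44). Bax missed the threshold at 0.38 ± 0.11 (adjusted p = 0.0103) and passed it without FP replicate 2 (0.44, adjusted p = 0.00773) or PBS replicate 3 (0.55, adjusted p = 0.000165). Pmaip1 had -0.17 ± 0.12.

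The direct test of FP against IL-2 at 16 h called 8 of the 10 genes, 4 higher and 4 lower, where 31.9% of genes were called (17% higher, 14.9% lower). Bcl2 was higher with FP by 0.72 ± 0.078, Bax by 0.69 ± 0.11, Bak1 by 0.48 ± 0.13 and Bid by 0.46 ± 0.091. Against PBS the Bax value was -0.315 with IL-2 and 0.38 with FP, neither of them called. Bcl2l11 was lower by a change of -0.89 ± 0.13, Bbc3 by -1.39 ± 0.21, Bmf by -1.98 ± 0.35 and Mcl1 by -0.29 ± 0.073. The Mcl1 call was lost without FP replicate 3 or 4 or any 1 IL-2 library (-0.29 to -0.22, adjusted p 0.0116 to 0.0451), and the Bak1 call without FP replicate 3 or 4 or IL-2 replicate 4 (0.47 to 0.48, adjusted p 0.0111 to 0.0157). Both contrasts of the FP group share its 4 libraries.

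Around the family at 16 h with FP, where 28.9% of all genes were called, 10 of 12 genes linked to FOXO factors fell and none rose (median -0.68), with Il7r at -2.02 ± 0.27 and Pik3ip1 at -1.48 ± 0.14. Of 10 tested regulators 3 fell (median -0.12), a share near that of all genes, the largest change being Bcl6 at -2.20 ± 0.12 and then Stat5b at -0.51 ± 0.068. Caspase, apoptosome and IAP genes had 3 higher and 2 lower of 16, also near it (median 0.041): Cycs at 0.81 ± 0.12, Aifm1 at 0.44 ± 0.07, Birc2 at -0.59 ± 0.091 and Birc3 at -0.51 ± 0.062, the last pair encoding inhibitors of apoptosis. The death receptor arm had 3 higher and 3 lower of 9 (median -0.15), among them Casp8 at 0.52 ± 0.065, Ripk1 at 0.47 ± 0.064, the death receptor Fas at -0.77 ± 0.11 and its ligand Fasl at -0.71 ± 0.14.

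Of 13 tested other BCL2 family genes, 3 fell with FP at 16 h and none rose (median -0.26). Bcl2a1d and Bcl2a1b, near-identical survival genes between which reads can be split, had the largest decreases, -1.01 ± 0.18 and -0.96 ± 0.15. Of 10 tested p53 targets 3 rose and 2 fell (median 0.060), with Cdkn1a at 1.37 ± 0.32, Aen at 0.95 ± 0.092, Trp53inp1 at -1.14 ± 0.13 and Sesn1 at -1.06 ± 0.067. With IL-2 at 16 h no gene of these 6 lists was called. Summed B cell markers were 303 to 324 CPM with FP against 336 to 530.5 CPM with PBS and 459.9 to 511 CPM with IL-2, with 2 of 6 called lower against PBS. Of the 4 T cell markers 2 were lower with FP (median -0.45), and 3 of 7 Treg markers were higher (median 0.23). The part of these shifts in the results was not tested.

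**Figure D4:**
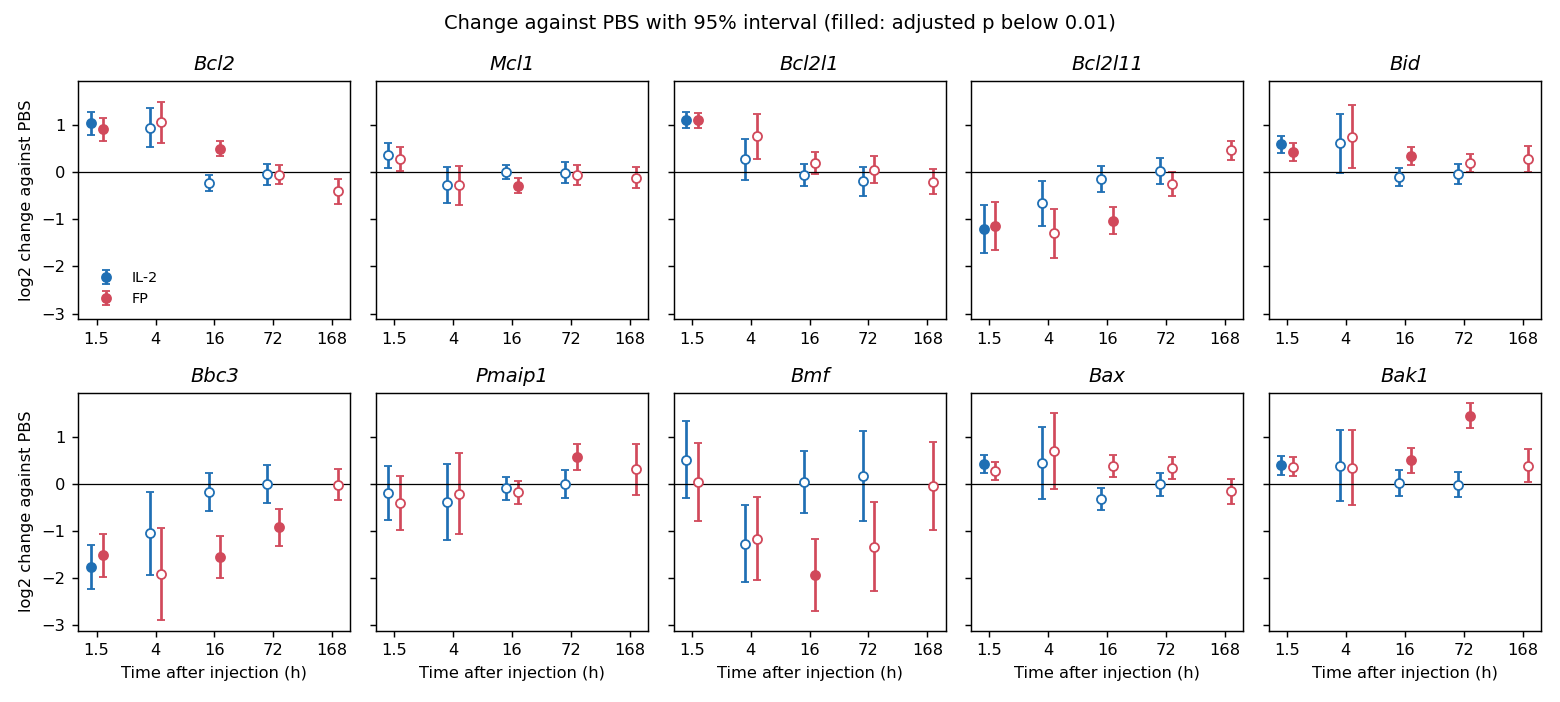
The log2 change of each of the 10 genes against PBS of the same time, with 95% interval, for IL-2 (blue) and FP (red) at 1.5, 4, 16, 72 and 168 h, with filled points for an adjusted p below 0.01. No IL-2 point is filled from 16 h on, where Bax is at -0.315 at 16 h. FP values of Bbc3 stay low through 72 h, and Bak1 peaks with FP at 72 h.

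At 72 h FP left another pattern. Bak1 and Pmaip1 were higher and Bbc3 lower, 3 of 10 genes, where 30.5% of genes were called (17.4% higher, 13% lower), a share near that of all genes. IL-2 changed no gene of the whole table (0%), with 76 genes and none of the 10 at an unadjusted p under 0.05 and 0 called by DESeq2. On the log2 scale the 95% interval of the IL-2 change was -0.26 to 0.17 for Bcl2 and, for Bcl2l11, -0.24 to 0.30.

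Bak1 had 34.4, 35.6 and 30.6 CPM with PBS, 37.4, 32.1 and 29.9 CPM with IL-2 and 92.0, 104, 95.1 and 75.8 CPM with FP. The lowest FP library was above the highest of the others by a wide gap, and the change was 1.45 ± 0.12 (adjusted p = 1.61e-06), the largest increase of any of the 10 genes in the 13 comparisons with PBS. Ggnbp1, which overlaps Bak1 on the opposite strand, had a value of -0.37. Pmaip1 had 12.3, 11.4 and 10.9 CPM with PBS and 17.5, 19.5, 14.6 and 16.9 CPM with FP and rose by 0.57 ± 0.12 (adjusted p = 0.00263), a call lost without PBS replicate 2 or 3 (0.56 and 0.54, adjusted p = 0.0181 and 0.0213), with first runs only (0.50, adjusted p = 0.0173) and with only the FP and PBS libraries in the fit (0.56, adjusted p = 0.0111). Bbc3 had 14.3, 12.2 and 11.4 CPM with PBS and 5.94, 7.52, 5.05 and 8.02 CPM with FP and fell (change -0.92 ± 0.18, adjusted p = 0.00124).

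The survival genes Bcl2, Mcl1 and Bcl2l1 were not called at 72 h, with values of -0.051 ± 0.092, -0.056 ± 0.094 and 0.054 ± 0.13, and Bcl2l11 had -0.25 ± 0.12. Bmf had 6.01, 5.62 and 5.55 CPM with PBS and 2.89, 0.66, 1.64 and 3.83 CPM with FP, a value of -1.33 ± 0.43 that missed the threshold (adjusted p = 0.0253) and passed it without FP replicate 4 (-1.75, adjusted p = 0.00441). Bax and Bid had 0.33 ± 0.11 and 0.21 ± 0.089, not called and without overlap between groups. FP against IL-2 gave the same 3 calls, where 31% of genes were called (18% higher, 13% lower): Bak1 1.47 ± 0.12, Pmaip1 0.57 ± 0.12 and Bbc3 -0.92 ± 0.18. That Pmaip1 call was lost without any 1 IL-2 library (0.52 to 0.60, adjusted p 0.0125 to 0.0144), with first runs only (0.45, adjusted p = 0.0266) and with only the compared groups in the fit (0.56, adjusted p = 0.0103), and Bmf (-1.5) was called without FP replicate 4 or IL-2 replicate 3 (-1.92 and -1.78, adjusted p = 0.00244 and 0.00947).

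Myeloid markers moved with FP at 72 h. Their sum was 26.4 to 121 CPM with FP against 587 to 1473 CPM with PBS and 596 to 1062 CPM with IL-2, and 10 of 11 were called lower than with PBS (median -3.55). Summed B cell markers were 456 to 573 CPM with FP and 352 to 399.9 CPM with PBS, 2 of 6 called higher, and 5 of 7 Treg markers were higher. The part of these cells in the values of Bak1, Pmaip1 and Bbc3 was not tested.

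With FP at 72 h 30.5% of all genes were called (17.4% higher), and the median of all genes was -0.050. Of 16 caspase, apoptosome and IAP genes 5 were higher and none lower, in all a share near that of all genes called (median 0.18), among them Cycs by 1.54 ± 0.29. Of 11 tested p53 targets 5 were higher and none lower (median 0.48), the largest Cdkn1a, an inhibitor of the cell cycle, by 4.48 ± 0.27, and Phlda3 by 1.58 ± 0.24. Bbc3 and Pmaip1 are themselves known p53 targets, and they were called in opposite directions here. In the death receptor arm 4 of 9 genes were higher and 1 lower (median 0.29), led by Ripk1 at 0.71 ± 0.12 and Casp8 at 0.70 ± 0.12, with Cflar, an inhibitor of caspase-8, at -0.46 ± 0.098.

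Regulators at 72 h had 2 higher and 1 lower of 11 (median -0.12), Trp73 by 4.43 ± 0.41, Fbxw7 by 0.49 ± 0.089 and Bcl6 at -1.25 ± 0.18. Of 12 genes linked to FOXO factors 6 were lower and none higher (median -0.37), with Il7r at -1.14 ± 0.15 and Pik3ip1 at -0.90 ± 0.1. Of 13 tested other BCL2 family genes, Bad rose by 0.58 ± 0.13 and Bcl2a1a had -2.78 ± 0.56 (median -0.058), the latter subject to reads shared with its near-identical copies.

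At 168 h no member was called, where 1.18% of genes were, and no gene of the 6 lists was. Bcl2l11 was closest, with 77.3, 79.6 and 67.1 CPM with PBS and 114, 101, 101 and 96.5 CPM with FP, no overlap, and a value of 0.47 ± 0.094 (adjusted p = 0.0259), now above PBS. Bcl2 had 336, 415 and 307 CPM with PBS and 263, 308, 236 and 257 CPM with FP, -0.41 ± 0.12 (adjusted p = 0.14), with FP replicate 2 just above PBS replicate 3. Bak1 had 0.39 ± 0.16 and Bbc3 -0.015 ± 0.15. Myeloid markers were still low with FP, at 36.1 to 59.5 CPM in sum against 390.3 to 548 CPM with PBS, 9 of 10 called lower, and their part was not tested.

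Changes of effect between times were tested as differences of the log2 changes, each time against its own PBS. Each time is a table of its own, so a difference between times cannot be told apart from a difference between tables. From 1.5 h to 16 h the IL-2 effect on 5 of the 10 genes differed, where 12.9% of genes did (5.04% higher, 7.83% lower): Bcl2 by -1.26 ± 0.14, Bcl2l1 by -1.16 ± 0.14, Bax by -0.73 ± 0.15, Bid by -0.69 ± 0.12 and Bbc3 by 1.60 ± 0.31. Bcl2l11 had 1.06 ± 0.29 and missed the threshold (adjusted p = 0.0106), which it passed without 16 h PBS replicate 1, 1.5 h IL-2 replicate 2 or 1.5 h PBS replicate 3 (1.12 to 1.23, adjusted p 0.00198 to 0.00943). The FP effect differed for Bcl2l1 alone of the 10 (-0.89 ± 0.14, adjusted p = 6.97e-05), where 5% of genes did (3.56% higher, 1.44% lower). The intervals for FP were -0.45 to 0.75 for Bcl2l11 and -0.61 to 0.60 for Bbc3, and Mcl1, at -0.54 ± 0.14, was called without 1.5 h FP replicate 4 (-0.62, adjusted p = 0.00582).

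From 16 h to 72 h the FP effect differed for 4 genes, where 15.4% of genes did (8.49% higher, 6.93% lower): it was higher for Bak1 by 0.94 ± 0.18, for Bcl2l11 by 0.77 ± 0.19 and for Pmaip1 by 0.74 ± 0.17, and lower for Bcl2 by a difference of -0.56 ± 0.11. The Bcl2l11 difference was lost without 72 h FP replicate 2, 72 h PBS replicate 2 or 3, 16 h FP replicate 2, 3 or 4, or 16 h PBS replicate 1 (0.57 to 0.79, adjusted p 0.0103 to 0.0193). From 72 h to 168 h it was higher for Bcl2l11 by 0.72 ± 0.15 and lower for Bak1, at -1.06 ± 0.20, where 8.79% of genes differed (2.24% higher, 6.55% lower). Without 72 h PBS replicate 1 the Bcl2l11 difference was 0.63 (adjusted p = 0.0117), and Bbc3, at 0.91 ± 0.23, was called without 168 h FP replicate 3 (1.01, adjusted p = 0.00838) or 72 h FP replicate 4 (1.04, adjusted p = 0.00395). Consecutive differences share the 16 h or 72 h libraries.

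In vitro, IL-2 for 1.5 h raised Bcl2 and Mcl1 and lowered Bcl2l11, Bbc3, Bmf and Pmaip1. These are 6 of 10 genes, 2 higher and 4 lower, where 14.7% of genes were called (7.81% higher, 6.87% lower), in a table whose replicates varied little (4.48% biological variation). Bcl2 had 149, 153 and 158 CPM with PBS and 375, 382 and 389 CPM with IL-2, a change of 1.32 ± 0.037 (adjusted p = 8.17e-31). The antisense D630008O14Rik rose by 2.25. Mcl1 had 441, 452 and 461 CPM with PBS and 991, 1019 and 959 CPM with IL-2, a change of 1.13 ± 0.036 (adjusted p = 1.12e-28). In both genes every IL-2 library was far above every PBS library. Bcl2l1 was not called (0.14 ± 0.049, adjusted p = 0.0306, and 0.19 with adjusted p = 0.00417 without PBS replicate 1).

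All 4 decreases in vitro were without overlap. Bcl2l11 had 348, 335 and 352 CPM with PBS and 244, 248 and 250.3 CPM with IL-2 (-0.48 ± 0.036, adjusted p = 2.76e-15). Pmaip1 had 75.6, 79.9 and 84.6 CPM with PBS and 65.3, 65.9 and 63.0 CPM with IL-2 (-0.31 ± 0.047, adjusted p = 1.06e-06). Bbc3 had 15.4, 17.8 and 16.1 and 11.1, 12.2 and 11.9 CPM (-0.48 ± 0.086), and Bmf 9.44, 10.5 and 7.85 and 5.03, 4.63 and 4.74 CPM (-0.95 ± 0.12). Bid, Bax and Bak1 had values of 0.082, 0.15 and 0.091, not called.

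The IL-2 effect at 1.5 h differed between dish and animal for 3 of the 10 genes, where 5.12% of genes did (2.17% higher, 2.94% lower). It was higher in vitro for Mcl1 by 0.77 ± 0.16 (adjusted p = 0.0036), lower for Bcl2l1 by a difference of -0.97 ± 0.11 (adjusted p = 5.39e-06) and less negative for Bbc3 by 1.27 ± 0.28 (adjusted p = 0.00435). The Mcl1 difference lost its call without in vitro IL-2 replicate 1 or 2 or any 1 in vitro PBS library (0.74 to 0.79, adjusted p 0.0101 to 0.0134). That of Bbc3 lost it without in vitro IL-2 replicate 2 or 3, in vitro PBS replicate 1 or 3, 1.5 h IL-2 replicate 3 or 4, or 1.5 h PBS replicate 1 (1.17 to 1.26, adjusted p 0.0100 to 0.0164). Bcl2l11 and Bmf had differences of 0.72 ± 0.30 (adjusted p = 0.16) and -1.47 ± 0.49 (adjusted p = 0.0696). The mean Bcl2l1 level with PBS was 76.2 CPM in vitro and 36.1 CPM in vivo at 1.5 h. The in vitro and in vivo libraries differ in table as well as in setting, which cannot be told apart.

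Beside the family in vitro, where 14.7% of all genes were called and their overall median was -0.0021, Bcl6 had -3.25 ± 0.042 and Foxo1 -0.42 ± 0.036, 3 of 10 tested regulators lower and none higher (median -0.12). The death receptor arm had 4 higher and 3 lower of 9 (median -0.041), with Fas at 1.63 ± 0.051, Casp8 at 1.13 ± 0.039, Tnfrsf1a at -0.34 ± 0.065 and Tnfrsf10b at -0.31 ± 0.063. Caspase, apoptosome and IAP genes had 2 higher and 3 lower of 16 (median -0.0096), with Diablo at 0.36 ± 0.062, Birc2 at -0.22 ± 0.037 and Apaf1 at -0.20 ± 0.043. Of 12 genes linked to FOXO factors 3 were higher and 7 lower (median -0.17), with Btg1 at 0.59 ± 0.037, Ccr7 at -0.69 ± 0.035 and Tcf7 at -0.63 ± 0.037. Of 11 tested p53 targets 4 were lower and none higher (median -0.26), with Trp53inp1 at -0.43 ± 0.076 and Sesn1 at -0.32 ± 0.044, and of 11 tested other BCL2 family genes Bcl2a1b had -0.32 ± 0.08 (median -0.094).

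The high dose of IL-2 changed no gene of its table by edgeR (0%), with 2701 at an unadjusted p under 0.05 and 549 called by DESeq2, none of the latter among the 10. Bcl2l1 was the nearest, with 47.2, 40.4 and 48.7 CPM with PBS and 26.9, 24.4 and 19.3 CPM with IL-2, below PBS without overlap, and a value of -0.95 ± 0.18 (adjusted p = 0.0623, and 0.15 without IL-2 replicate 2). Bbc3 had 17.4, 17.7 and 22.1 CPM with PBS and 14.4, 57.0 and 17.8 CPM with IL-2, so that replicate 2 set the group apart. Without that library the Bbc3 value turned from 0.64 to -0.21, and that of Bcl2l11 went from 0.41 to 0.087. Bcl2 had -0.79 ± 0.36 (and -0.54 without replicate 2) and Bak1 0.69 ± 0.32 (and 0.47 without it), both with overlapping groups. Summed B cell markers were higher with IL-2 in every library (690.1 to 1229.5 CPM against 299.6 to 487) and myeloid markers lower (59.0 to 82.0 against 129 to 144), and their part was not tested.

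In the restimulation table no member was called after PBS then FP (0.0111% of genes called) or FP then FP (0.629%), nor between them (0.563%). Bcl2l1 had 52.0, 42.8 and 56.3 CPM after PBS then PBS, 41.7, 90.1 and 79.3 after PBS then FP and 117, 126, 99.4 and 99.3 after FP then FP. Its value after FP then FP was 1.13 ± 0.24 (adjusted p = 0.0282), without overlap. Bcl2 had 294, 281 and 225 CPM, 304, 601 and 659 CPM and 332, 237, 526 and 303 CPM in the same order, and replicate 3 of FP then FP stood above the other libraries of its group.

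The library labelled PBS then FP, replicate 1, was the lowest of its group for Bcl2 and Bcl2l1 and the highest of the table for Bbc3. Bbc3 had 13.3, 12.999 and 16.7 CPM after PBS then PBS, 23.5, 7.05 and 8.81 CPM after PBS then FP and 10.6, 11.2, 7.00 and 10.4 CPM after FP then FP. Without this library the value after PBS then FP went from -0.12 to -0.86 for Bbc3 (adjusted p = 0.15), from 0.0091 to -0.46 for Bcl2l11, from 0.97 to 1.24 for Bcl2 and from 0.48 to 0.75 for Bcl2l1, still with no call. FP then FP against PBS then FP gave -0.58 ± 0.31 for Bcl2 and 0.26 ± 0.28 for Bcl2l11, and -0.85 and 0.73 without it, with the Bbc3 value turning from -0.43 to 0.30.

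The ratio of Bcl2 to Bcl2l11 within a library does not depend on how libraries are scaled, and is given as a description. With PBS it was 3.08 ± 0.539 (SD, n = 4) at 1.5 h, and it was 15.1 ± 3.61 with IL-2 and 12.9 ± 1.98 with FP. At 4 h it was 3.88 ± 1.47 with PBS, 10.9 ± 0.656 with IL-2 and 19.1 ± 5.04 with FP. At 16 h it was 4.69 ± 0.872 with PBS, 4.34 ± 0.344 with IL-2 and 13.2 ± 1.38 with FP. Every treated library was above every PBS library at 1.5 h and 4 h, and at 16 h only the FP libraries were. At 168 h the order was turned, 4.71 ± 0.446 with PBS and 2.59 ± 0.348 with FP, again without overlap. In vitro the ratio was 0.444 ± 0.0142 with PBS and 1.54 ± 0.00973 with IL-2.

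**Figure D5:**
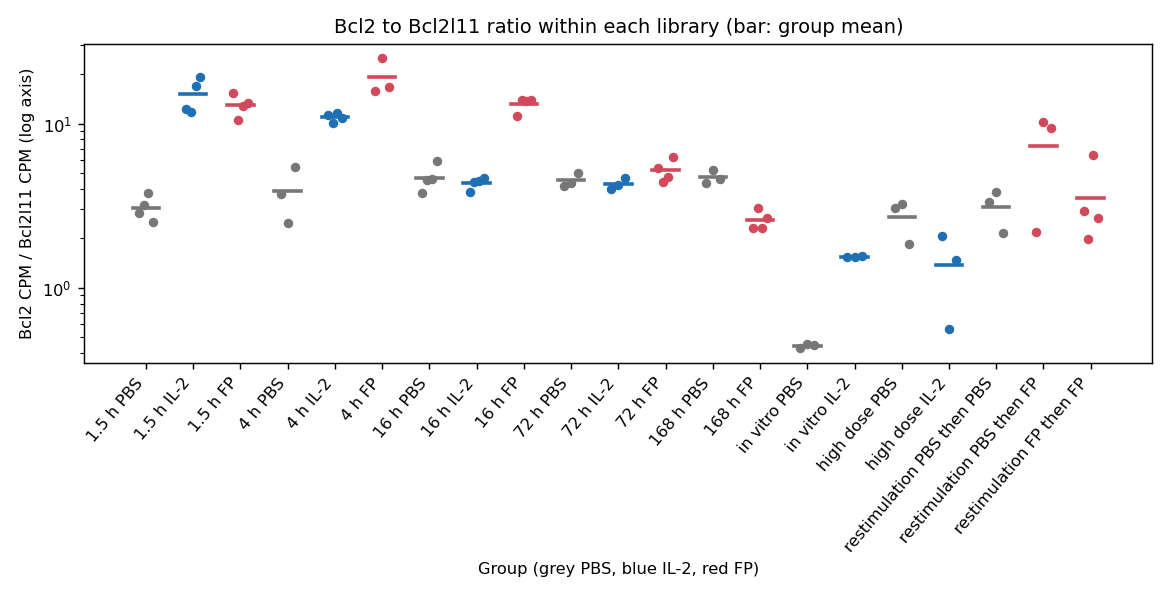
Ratio of Bcl2 CPM to Bcl2l11 CPM in each library on a log axis, by group, with bars for group means (grey PBS, blue IL-2, red FP). Both agents lie above PBS at 1.5 h and 4 h, FP alone at 16 h, and FP lies below PBS at 168 h.

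For the 3 genes called in at least 4 of the 13 comparisons, the genes whose 13 log2 changes were most like theirs were found among 11714 of the 15247 genes tested in all 8 tables, those left after predicted and clone-named genes (such as Gm and Rik symbols) were set aside, by Pearson's r over the 13 changes. For Bcl2 they were Mgat4a (r = 0.97), Traf4 (0.96) and Lta (0.96), for Bcl2l11 Pde2a (0.97), Fam117b (0.96) and Atp10d (0.96), and for Bbc3 Sidt1 (0.97), Tent5c (0.97) and Cblb (0.96). The 13 points are not independent, since groups of 1 table share their PBS libraries, and r ignores size: the largest absolute change was 0.67 for Mgat4a and 2.99 for Lta.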

How the data were processed

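Splenic mouse Treg RNA was sequenced in 91 samples, of which 16 are second runs that were summed with the first, giving 75 libraries. Of these, 73 were compared, and 2 of the 4 h table were left out because their title and their injected molecule disagree. The deposited files are tables of read counts per gene that the authors made with STAR 2.5.0 on GRCm38 and featureCounts 1.5.0, per the submitters' processing notes, and every row passed 0.5 CPM in at least 3 columns, as checked. No column was left unused (0). A second run differed from its first by little more than sampling noise (chi-square per degree of freedom 1.03 to 1.08, against 2.65 to 303 between other replicates).

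Counts were tested with edgeR 4.0.16 (limma 3.58.1, R 4.3.3): filterByExpr, TMM, robust quasi-likelihood fit over all genes of a table, 1 mean per group, 2-sided, Benjamini-Hochberg adjustment over all genes, called below 0.01. The SE is the log2 change divided by the root of F, and intervals are 95%. Effects of 2 tables were compared in 1 joint fit. Scripts were tested on simulated counts. The BCL2 family genes and the lists were chosen with earlier results of these data known. All 10 genes are named in each comparison, and from other lists called genes among the 2 largest increases and decreases, some of which are not reported here.

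Alternatives were DESeq2 1.42.0, RLE scaling, no added filter, a replicate block, only the groups compared, first runs only, lane, and leaving out each library. Replicate numbers are from the titles. They were taken to pair samples where each pair's deviations correlated above 0.1, which held for FP and PBS at 4 h (0.56, 0.18 and 0.82), IL-2 and PBS at 4 h (0.80, 0.38 and 0.80) and IL-2 and PBS at 72 h (0.42, 0.29 and 0.36).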

Additional observations from a re-analysis of the deposited data

Results flagged for a closer look

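In groups of 4 libraries, the distance of the highest or lowest library from its nearest neighbour was set against the group's range for each of the 10 genes. This gave 5 values out of 100 groups and genes, and chance gives about 1 in 20. At 1.5 h with IL-2, replicate 2 had 70.3 CPM of Bcl2l1, below the others. At 4 h with IL-2, replicate 1 had 64.1 CPM of Bid and 86.8 CPM of Bax, above the others. At 16 h, FP replicate 1 had 10.1 CPM of Pmaip1 and IL-2 replicate 2 had 44.5 CPM of Bcl2l1, each apart from the rest of its group.

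Effects that differed between settings or times by the test of the difference itself are given on the log2 scale. The setting or time and the table cannot be told apart in them. For IL-2 at 1.5 h, in vitro minus in vivo, the difference was 0.769 for Mcl1, -0.971 for Bcl2l1 and 1.27 for Bbc3. For IL-2 at 16 h minus 1.5 h it was -1.26 for Bcl2, -1.16 for Bcl2l1, -0.69 for Bid, 1.6 for Bbc3 and -0.731 for Bax. For FP at 16 h minus 1.5 h it was -0.885 for Bcl2l1. For FP at 72 h minus 16 h it was -0.562 for Bcl2, 0.769 for Bcl2l11, 0.74 for Pmaip1 and 0.943 for Bak1. For FP at 168 h minus 72 h it was 0.721 for Bcl2l11 and -1.06 for Bak1.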

How the results depend on the processing

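No called value of the 10 genes changed sign under any alternative run. Of 1120 gene values under settings other than leaving out a library, 1070 kept their side of the threshold, 12 lost a call and 38 gained one. Of 2020 gene values with a library left out, 1940 kept it, 66 lost a call and 14 gained one. Values without a call that changed sign count as kept. With IL-2 at 4 h, called members went from 0 to 1 under the replicate block, 3 with the tag factor and 2 with DESeq2, and with FP at 4 h from 0 to 3, 7 and 3. The replicate block gave 5 in place of 3 for FP at 72 h against PBS and against IL-2 (Bmf and Bax added), where the numbers do not pair samples by the rule used. It gave Mcl1 and lost Bak1 for IL-2 at 1.5 h, leaving the count at 7, and added Bax for FP at 16 h (8 in place of 7), and changed no other call. With only the compared groups in the fit, calls were lost for Bax and Bak1 (IL-2, 1.5 h, adjusted p = 0.0119 and 0.0178), Mcl1 and Bak1 (FP, 16 h, 0.0373 and 0.014) and Pmaip1 (FP, 72 h). Without the added low-count filter Mcl1 lost its call for FP at 16 h (0.0197 against PBS, 0.0135 against IL-2). At 1.5 h, 16 h and 168 h, in vitro, at the high dose and in the restimulation, same-numbered libraries did not all correlate above 0.1. DESeq2 gave 1 in place of 0 for FP at 168 h (Bcl2l11) and for FP then FP against PBS then PBS (Bcl2l1), and 2 in place of 1 for FP at 16 h minus 1.5 h (Mcl1 added). It also added Bak1 for FP at 1.5 h (adjusted p = 0.00758) and Bax for FP at 16 h (0.00285). At 72 h it added Bmf for FP against PBS (0.00391) and against IL-2 (0.000977). Among differences between times it added Bcl2l11 for IL-2 at 16 h minus 1.5 h (0.00119) and Bbc3 for FP at 168 h minus 72 h (0.00159). The cause was not tested. Over all genes, DESeq2 called 549 in place of 0 at the high dose, 736 in place of 113 after FP then FP and 143 in place of 2 after PBS then FP. With 1 library left out in turn, the members called ran from 4 to 7 (IL-2, 1.5 h), 3 to 5 (FP, 1.5 h), 4 to 8 (FP, 16 h), 2 to 4 (FP, 72 h), 6 to 7 (in vitro), 6 to 8 and 2 to 4 (FP against IL-2 at 16 h and 72 h), 1 to 3 (in vitro minus in vivo), 5 to 6 (IL-2, 16 h minus 1.5 h), 1 to 2 (FP, 16 h minus 1.5 h), 3 to 4 (FP, 72 h minus 16 h) and 1 to 3 (FP, 168 h minus 72 h), and was 0 in the others. Low levels of Bmf and wide spread between libraries at 4 h and the high dose limit what could be called.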

Other observations

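Among the 4 h libraries 2 have a title and an injected-molecule label that disagree, and both entered no comparison. For each, the treatment label and the name of its column in the count table go with the title. Their values are CPM over the plain library total, without TMM factors. The library titled PBS, replicate 3, and labelled mIL-2/CD25 had 390.0 CPM of Bcl2, 84.6 of Bcl2l11, 13.1 of Bbc3 and 38.8 of Bcl2l1. The library titled FP, replicate 3, and labelled PBS had 923 CPM of Bcl2, 67.9 of Bcl2l11, 7.04 of Bbc3 and 61.3 of Bcl2l1.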
